A study of Mus musculus with 28 samples.

Results

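Checkpoint ligands and costimulatory molecules were followed in the mouse line 3LL, which derives from Lewis lung carcinoma, and in the tumors that it formed. Members were the genes whose symbol is Cd274, Pdcd1lg2, Cd80, Cd86, Ctla4, Havcr2, Lgals9, Cd47, Nt5e or Cd276, and 9 of these 10 had a row among the 43143 rows of the table, of which 18509 carry a symbol. The expression of Pdcd1lg2 was not analysed here. RNA was sequenced in 28 libraries that fall into 7 groups of 4. The cultured cells were wild-type (WT cells), Keap1-KO (KEAP1-KO cells) and Keap1-Nrf2-DKO (DKO cells). KEAP1-KO cells carry a frameshift insertion in Keap1 made with Cas9 and were grown from a single colony, and DKO cells were a clone derived from KEAP1-KO cells by also editing Nfe2l2, the gene of NRF2, so what is particular to a clone cannot be told apart from its genotype. Tumors grew under the skin of male albino C57BL/6 mice aged 6 weeks and were taken at day 10, with a tumor on each flank of the same mouse. Mice of Experiment A bore WT cells on the left (WT tumors A) and KEAP1-KO cells on the right (KEAP1-KO tumors A). Mice of Experiment B bore KEAP1-KO cells on the left (KEAP1-KO tumors B) and DKO cells on the right (DKO tumors B). The labels do not say which tumors came from the same mouse, and the fits treat tumors as independent. Genotype and flank cannot be told apart within an experiment. Cancer cells carried the edits and the mice did not. One passage of the labels names mouse liver as the source of RNA, which conflicts with their titles, and the description of cells and tumors was used. Nothing states that the cell libraries came from separate cultures, so their p-values measure the spread between these libraries, which may be technical.

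T cell activation needs a signal through the T cell receptor and a second signal that CD80 and CD86 on antigen-presenting cells give to CD28. CTLA-4 competes for the same ligands and restrains the T cell, and PD-L1, encoded by Cd274, does so through PD-1. TIM-3 (Havcr2) with its ligand galectin-9 (Lgals9) and B7-H3 (Cd276) are further regulators of T cells, CD47 is a surface signal that holds back phagocytosis by macrophages, and CD73 (Nt5e) makes adenosine from AMP outside the cell. PD-L1 can be made by cancer cells and by myeloid cells and is induced by interferon gamma, whereas CD80, CD86 and TIM-3 are typical of leukocytes. KEAP1 holds NRF2, the transcription factor of the oxidative stress response, at a low level, and loss of KEAP1 raises it.

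The row of a gene is not always the sum of its transcripts. Cd274, Cd80, Ctla4 and Cd276 have gene rows. The other 5 members are represented by a single transcript each: Havcr2 by a coding transcript (ENSMUST00000109229), Cd86 (ENSMUST00000145506) and Cd47 (ENSMUST00000231187) by processed transcripts without a coding frame, and Nt5e (ENSMUST00000186789) and Lgals9 (ENSMUST00000140073) by transcripts that keep an intron. For Nt5e, 11.5% of the 3602 bases of the row lie in exons of a consensus coding transcript, and for Lgals9 29.4% of 742 bases. The values of these rows can therefore follow unspliced RNA as well as messenger RNA. The edge between exon (capitals) and kept intron (lower case) in these rows is given with 30 bases on each side, from the GENCODE vM21 transcripts on GRCm38, chr9:88328001-88328060 (plus strand) for Nt5e and chr11:78969777-78969836 (minus strand) for Lgals9.
Nt5e: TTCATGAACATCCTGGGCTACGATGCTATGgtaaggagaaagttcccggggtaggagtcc
Lgals9: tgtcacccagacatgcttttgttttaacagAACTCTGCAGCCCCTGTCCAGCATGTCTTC
These letters show the annotated transcripts whose IDs the rows of Nt5e and Lgals9 carry, not where reads fell.

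Promoters of Cd274 and Lgals9 are shown because the loss of KEAP1 went with higher values of both rows in cells and with lower values in tumors. Each is 300 bases, from 250 before to 50 after the start, as RefSeq gives it on GRCm38.p6, at chr19:29367188-29367487 (plus strand) for Cd274 and chr11:78984875-78985174 (minus strand) for Lgals9. Capitals mark matches to an interferon-stimulated response element (ISRE), searched on both strands.
Cd274: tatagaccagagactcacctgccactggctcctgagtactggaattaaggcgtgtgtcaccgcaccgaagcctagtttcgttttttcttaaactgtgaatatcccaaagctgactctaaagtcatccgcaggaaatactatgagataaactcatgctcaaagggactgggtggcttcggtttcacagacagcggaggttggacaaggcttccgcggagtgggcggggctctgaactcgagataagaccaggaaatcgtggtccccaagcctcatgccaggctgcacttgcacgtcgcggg
Lgals9: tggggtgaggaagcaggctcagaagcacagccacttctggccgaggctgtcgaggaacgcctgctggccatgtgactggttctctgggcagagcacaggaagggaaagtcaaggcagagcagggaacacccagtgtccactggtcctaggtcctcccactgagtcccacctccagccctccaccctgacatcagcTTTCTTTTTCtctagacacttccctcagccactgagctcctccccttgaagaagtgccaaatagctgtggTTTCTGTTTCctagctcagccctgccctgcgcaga
Of the 10 members, 9 had a promoter in the table, Pdcd1lg2 among them and Cd86 not. Lgals9 held matches beginning 55 bases before and 15 bases after the start, the other 8 had none, and 3.44% of all 32851 promoters hold at least 1. Neither the interferon gamma activated site TTCNNNGAA, found in 8.30% of all promoters, nor the NRF2 element TGACNNNGC, found in 12.4%, was present in these windows of the members. A match is a run of letters and not a bound site.

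Levels are given as normalized counts, which are reads multiplied by 1 factor per library, and differences as differences of log2(normalized count + 4), the scale of the deposited values, which understates changes of low genes. A library held between 4222386 and 7524267 reads, and 1 read was worth between 0.809 and 1.16 normalized counts. Keap1 had mean log2 values between 7.35 and 7.59 in the edited groups and 9.45 in WT cells and 8.88 in WT tumors A. Nqo1, a direct target of NRF2, had 9.01, 12.45 and 6.77 in WT, KEAP1-KO and DKO cells and 6.85, 12.41, 12.23 and 5.93 in WT tumors A, KEAP1-KO tumors A, KEAP1-KO tumors B and DKO tumors B, so both DKO groups lay below WT. The row of Nfe2l2 is a processed transcript with a mean of 5.59 in both KEAP1-KO tumors B and DKO tumors B, so it does not check that edit. Of the epithelial markers, Krt8 had means between 10.70 and 12.22 over the 7 groups, and Krt18 fell from 6.97 in WT cells to 5.18 in KEAP1-KO and 3.78 in DKO cells and had means between 4.89 and 7.42 in tumors. A row is called where limma gives an adjusted p under 0.05 over all rows tested.

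**Figure D1:**
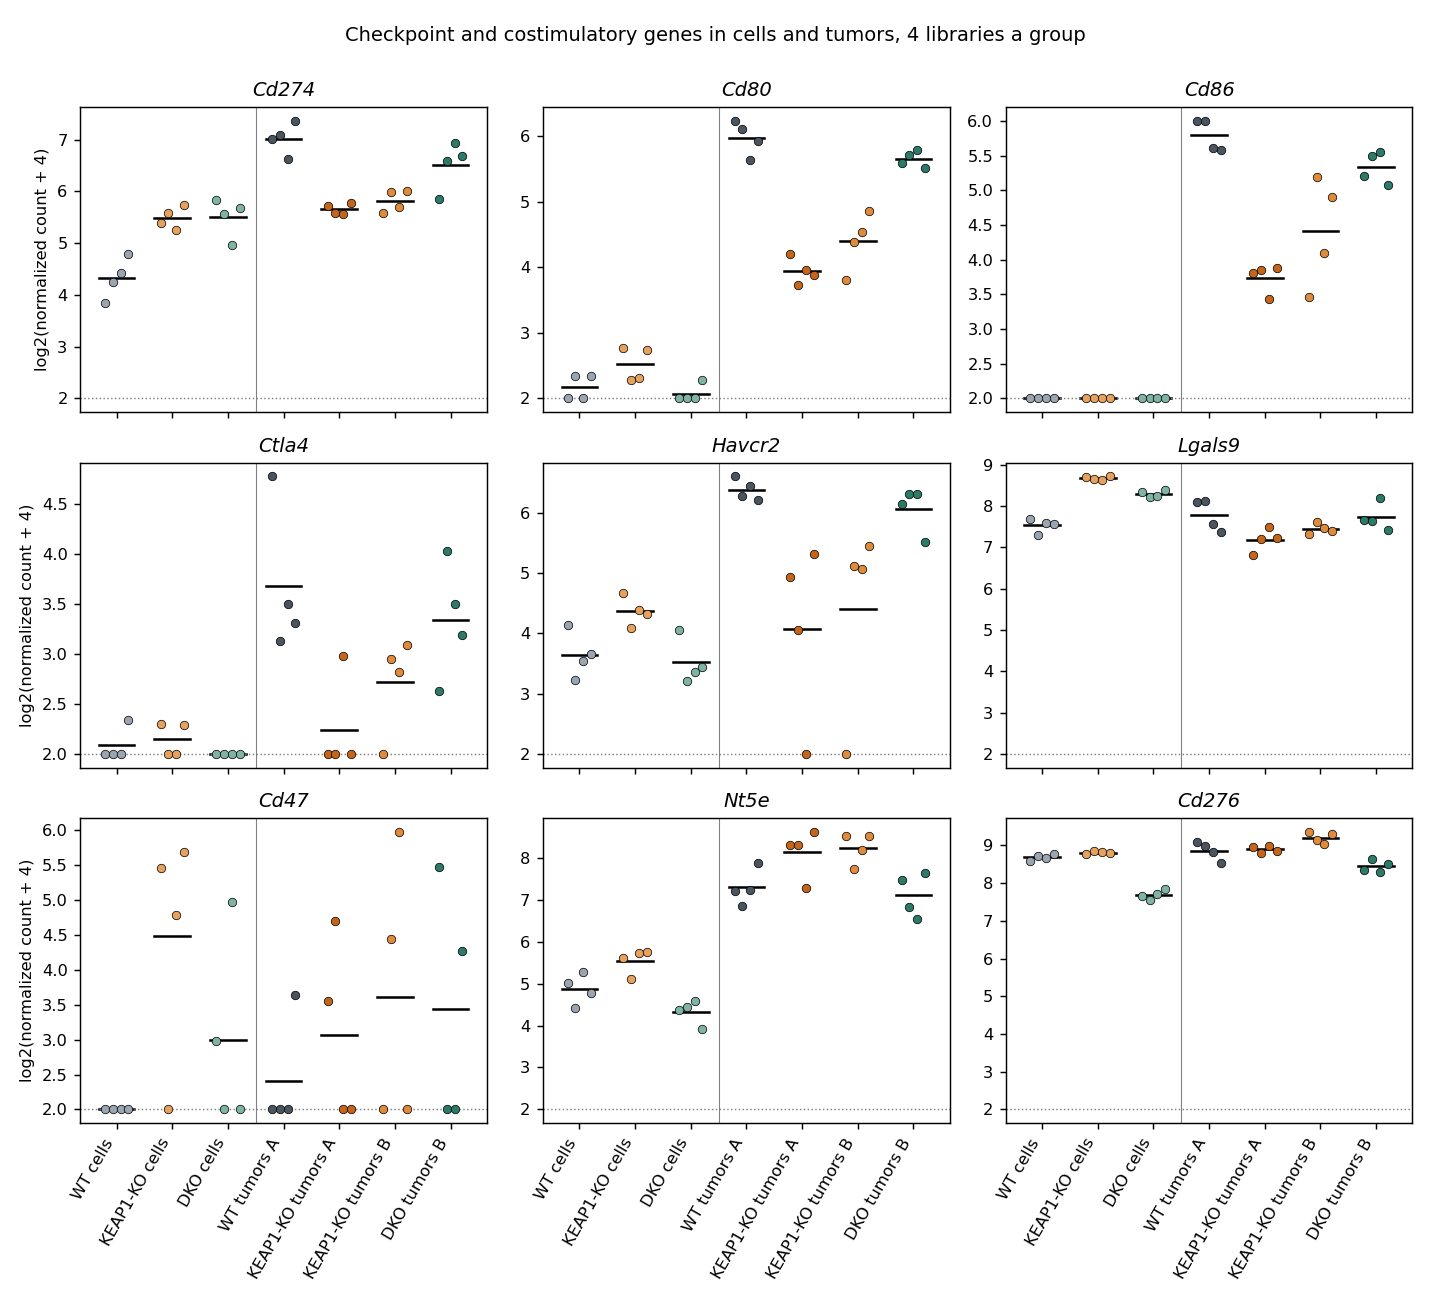
log2(normalized count + 4) of the 9 members in each library (points) of the 7 groups, with group means (bars) and the value of a count of 0 (dotted line at 2). Cd80, Cd86, Ctla4 and Cd274 are high in WT and DKO tumors and lower in both groups of KEAP1-KO tumors, while Nt5e and Cd276 are lowest in DKO groups within tumors and within cells.

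The first comparison asked how loss of KEAP1 in the cancer cells changed these genes in tumors of the same mice. In Experiment A, 6 of the 9 members fell in KEAP1-KO tumors and none rose, where 13.1% of all 34215 rows were called, 5.61% higher and 7.49% lower. One of the 6, Ctla4, passed the filter through WT and DKO tumors only, so its direction was set by the filter and 5 of the other 8 fell. The median difference of those 8 was -0.98, beside -0.03 for all rows. The costimulatory ligands Cd80 and Cd86 fell most clearly, by about 5-fold in mean normalized counts, and Cd274 fell nearly 3-fold. Nt5e and Cd276 were not among the genes that fell.

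Cd80, a ligand of CD28 and CTLA-4, had 71.0, 64.8, 45.7 and 56.9 normalized counts in WT tumors A (replicates 1 to 4) and 14.5, 9.25, 11.6 and 10.7 in KEAP1-KO tumors A. Every KEAP1-KO tumor lay below every WT tumor. The mean was 5.18-fold higher in WT tumors, a log2 difference of -2.03 (standard error 0.21, adjusted p = 5.27e-06, limma). Cd86, the second ligand of CD28, had 60.2, 60.01, 44.8 and 44.1 normalized counts in WT tumors A and 10.004, 10.4, 6.76 and 10.7 in KEAP1-KO tumors A. Its groups did not overlap either, and the mean was 5.52-fold higher in WT tumors (log2 difference -2.06, standard error 0.30, adjusted p = 1.59e-04, limma).

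Cd274, the gene of PD-L1, had 125, 131, 95.04 and 160.4 normalized counts in WT tumors A. In KEAP1-KO tumors A it had 48.9, 43.9, 43.5 and 50.6. The 4 KEAP1-KO tumors lay close together and all below the WT tumors, whose mean was 2.74-fold higher (log2 difference -1.36, standard error 0.20, adjusted p = 2.25e-04, limma). Cd274, Cd80 and Cd86 kept this call in all 20 alternative settings of the analysis.

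The other calls of this comparison were less firm. Ctla4, an inhibitory receptor of activated and regulatory T cells, was rare, with 46 reads in WT tumors A (23.4, 4.76, 7.31 and 5.94 normalized counts) and 4 reads in KEAP1-KO tumors A, all in replicate 3. It reached the 5 normalized counts of the filter in 3 WT tumors A, 3 DKO tumors B and 0 KEAP1-KO tumors, so the log2 difference of -1.44 (standard error 0.41, adjusted p = 0.0273, limma) is a description. Havcr2 had 93.4, 73.3, 83.2 and 70.5 normalized counts in WT tumors A and 26.7, 12.7, 0 and 36.0 in KEAP1-KO tumors A, a log2 difference of -2.30 (standard error 0.70, adjusted p = 0.0409, limma). All KEAP1-KO tumors were below all WT tumors for Havcr2, and the tumor at 0 is replicate 3. Lgals9 had between 162 and 272 normalized counts in WT tumors A and between 109 and 176 in KEAP1-KO tumors A, so its groups overlapped, with a log2 difference of -0.61 (standard error 0.19, adjusted p = 0.0481, limma). Leaving out WT tumors A replicate 1 or KEAP1-KO tumors A replicate 2 left 3 members called, Cd274, Cd80 and Cd86. The call of Lgals9 was lost in 14 of 20 alternatives, among them quantile normalization, centring on medians, no filter, no trend and a pseudocount of 0.4, with adjusted p up to 0.148 (limma). That of Havcr2 was lost in 10 of 20, among them a pseudocount of 0.4 (adjusted p = 0.165, limma), no filter and no trend, and that of Ctla4 in 4 of 18. Havcr2 lost its call without any 1 of the 4 WT tumors A and without KEAP1-KO tumors A replicate 2 or 3. Ctla4 lost it without WT tumors A replicate 1 or KEAP1-KO tumors A replicate 1, 2 or 4, and Lgals9 without WT tumors A replicate 1, 2 or 3 or KEAP1-KO tumors A replicate 1, 2 or 4. Without KEAP1-KO tumors A replicate 3 the difference of Havcr2 was -1.61 with an adjusted p of 0.108 (limma).

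Nt5e, which encodes CD73, had 144, 111, 146 and 233 normalized counts in WT tumors A and 315, 312, 153 and 388 in KEAP1-KO tumors A. The groups overlapped through the third KEAP1-KO tumor, and the log2 difference of 0.84 (standard error 0.30, adjusted p = 0.0875, limma) was not called. Without that tumor it was 1.12 with an adjusted p of 0.0134, and without WT tumors A replicate 4 it was 1.04 with an adjusted p of 0.0405 (limma). It was called as well when all 28 libraries entered 1 fit (adjusted p = 0.0462, limma). Cd276 (B7-H3) had between 366 and 539 normalized counts in WT tumors A and between 444 and 499 in KEAP1-KO tumors A, a log2 difference of 0.05 with a 95% interval from -0.19 to 0.29, where the interval comes from the limma fit.

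Leukocyte markers were also lower in KEAP1-KO tumors A. The summed level of the 6 leukocyte markers (Ptprc, which encodes CD45, and 5 others) was between 2811 and 3502 normalized counts in WT tumors A and between 639 and 713 in KEAP1-KO tumors A, and all 6 were called lower. Of 8 markers of macrophages and monocytes 7 were called lower, with sums between 7663 and 10626 in WT and between 3266 and 4038 in KEAP1-KO tumors A. Of T cell markers, 2 of the 3 tested were called lower, and all 8 summed to between 30.6 and 104 normalized counts in WT and between 20.4 and 26.7 in KEAP1-KO tumors A. Of neutrophil markers 3 of 4 were called lower, as were 2 of 6 of dendritic cells and 2 of 6 of fibroblasts. None of the 5 of endothelium was called. Both tested markers of NK cells were called lower too, but passed the filter through WT and DKO tumors only. NK cell markers summed to at most 3.86 normalized counts in KEAP1-KO tumors A and 2.26 in KEAP1-KO tumors B. The direction of the tested NK cell markers was therefore set by the filter. Of B cell markers 2 of 5 were in the table, and 1 of these, Pax5, was called higher. The B cell markers summed to between 127 and 156 normalized counts in KEAP1-KO against 24.6 to 52.4 in WT tumors A. In cultured cells, with no host cells around, they summed to between 137 and 176 in KEAP1-KO against 16.1 to 22.8 in WT cells. Pax5 was also higher in KEAP1-KO than in WT cells (3.32, adjusted p = 6.06e-09, limma). Of the epithelial markers 2 of 3 tested were called lower, Krt18 and Cdh1, with sums between 2272 and 3426 normalized counts in KEAP1-KO and between 2611 and 3348 in WT tumors A. In whole tumors, fewer cells of a type and less RNA per cell cannot be told apart. The part of these cell types in the fall of Cd80, Cd86, Ctla4, Havcr2, Cd274 and Lgals9 was not tested.

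**Figure D2:**
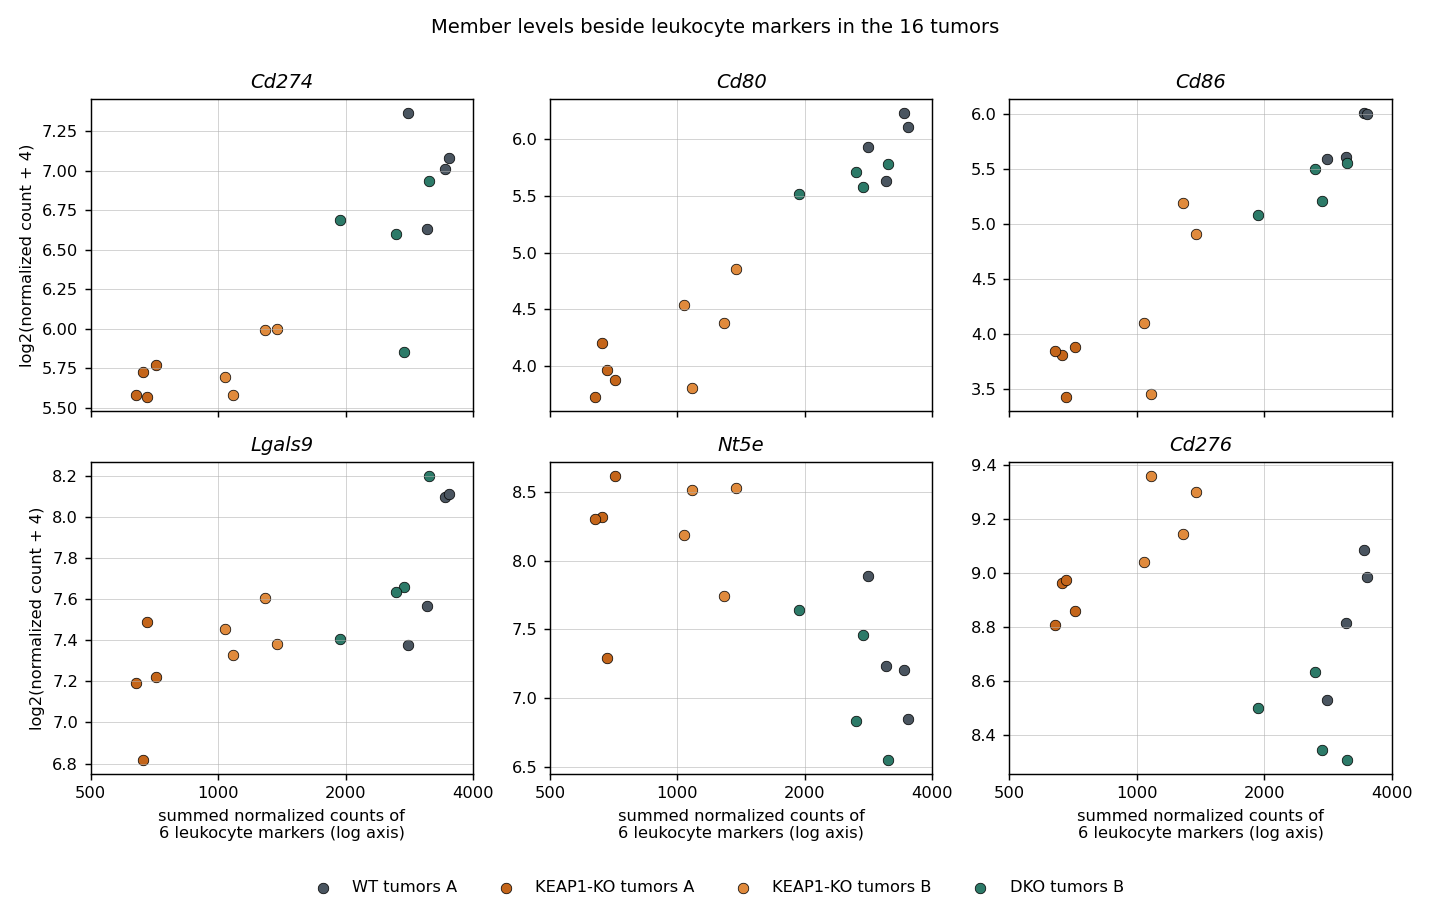
Level of 6 members, as log2(normalized count + 4), against the summed normalized counts of 6 leukocyte markers (log axis) in each of the 16 tumors, coloured by group. Tumors with low marker sums (KEAP1-KO tumors A, between 639 and 713) have low Cd80 and Cd86, and Nt5e is high in most of them.

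The next comparison asked how these levels changed when Nfe2l2 was also edited. In Experiment B, 4 of the 9 members were called, of which 2 were higher and 2 lower in DKO tumors, where 8.86% of 34215 rows were called, 4.22% higher and 4.64% lower. Cd80 and Cd274 rose in DKO tumors, and Nt5e and Cd276 fell. The median difference was 0.62 for the members and 0 for all rows. This median is the value of Ctla4, which was not called and passed the filter through WT and DKO tumors only. The direction of Ctla4 was set by the filter, so the median of the 9 members is a description.

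Cd80 had 9.98, 16.8, 19.3 and 24.9 normalized counts in KEAP1-KO tumors B and 43.8, 48.4, 51.0 and 41.8 in DKO tumors B. All DKO tumors were above all KEAP1-KO tumors, the mean was 2.61-fold higher, and the log2 difference was 1.25 (standard error 0.21, adjusted p = 8.56e-04, limma). Cd274 had 43.9, 59.6, 47.7 and 59.9 normalized counts in KEAP1-KO tumors B and 53.7, 92.7, 118 and 98.9 in DKO tumors B. The first DKO tumor lay within the range of KEAP1-KO tumors, the mean was 1.72-fold higher, and the log2 difference of 0.70 (standard error 0.20, adjusted p = 0.0421, limma) was close to the threshold. Cd86 had 6.98, 32.6, 13.2 and 25.99 normalized counts in KEAP1-KO tumors B and 32.9, 41.2, 42.9 and 29.8 in DKO tumors B, a log2 difference of 0.92 that was not called (standard error 0.30, adjusted p = 0.0702, limma) and was called in 4 of 20 alternatives, without KEAP1-KO tumors B replicate 2, at 1.18 (adjusted p = 0.0175, limma), with all 28 libraries in 1 fit (0.0164), with adjustment over rows with a symbol (0.0458) and with rescaling without the 20 highest rows (0.0455).

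Nt5e ran opposite to these ligands. It had 362, 210.4, 288 and 365 normalized counts in KEAP1-KO tumors B and 172, 110.2, 89.8 and 195 in DKO tumors B, without overlap, and was 2.16-fold higher in KEAP1-KO tumors (log2 difference -1.12, standard error 0.30, adjusted p = 0.0291, limma). Cd276 had 652, 561, 522 and 626 normalized counts in KEAP1-KO tumors B and 321, 394, 313 and 358 in DKO tumors B. Its groups stood well apart, and the log2 difference of -0.76 (standard error 0.11, adjusted p = 3.47e-04, limma) corresponds to a mean 1.70-fold higher in KEAP1-KO tumors. With KEAP1-KO tumors B replicate 1, 3 or 4 or DKO tumors B replicate 2 or 3 left out, Cd274 and Nt5e lost their calls, and 2 members, Cd80 and Cd276, stayed called. Over all alternatives Cd274 lost its call in 11 of 20, among them no filter, no trend and a fit of only the groups compared. Cd274 alone also lost its call without KEAP1-KO tumors B replicate 2 or DKO tumors B replicate 4, and its lowest value, without DKO tumors B replicate 3, was 0.56 (adjusted p = 0.134, limma).

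Havcr2 had 0, 30.7, 29.4 and 39.6 normalized counts in KEAP1-KO tumors B and 66.8, 75.2, 75.3 and 41.8 in DKO tumors B. These groups did not overlap, and yet the log2 difference of 1.66 was not called (95% interval from 0.17 to 3.16, adjusted p = 0.184, limma), with the first KEAP1-KO tumor at 0. Without that tumor the difference was 0.86 (adjusted p = 0.442, limma). Ctla4 had 11 reads in KEAP1-KO tumors B and 29 in DKO tumors B, a log2 difference of 0.62 (adjusted p = 0.439, limma). Lgals9 differed by 0.28 (adjusted p = 0.464, limma). All 6 leukocyte markers were called higher in DKO tumors. They summed to between 1935 and 3143 normalized counts there, against 1039 to 1377 in KEAP1-KO tumors B. Of 8 markers of macrophages and monocytes 7 were called higher. Both tested markers of NK cells were called higher too, but passed the filter through WT and DKO tumors only, so their direction was set by the filter. NK cell markers summed to between 0.997 and 2.26 normalized counts in KEAP1-KO tumors B. Of fibroblast markers 2 of 6 were called higher, with sums between 6205 and 8848 against 1912 to 2347. Of neutrophil markers 1 of 4 was called higher, of dendritic cell markers 1 was higher and 1 lower, and of T cell, B cell and endothelial markers none was called. Epithelial markers summed to between 1497 and 2141 normalized counts in DKO against 2120 to 2652 in KEAP1-KO tumors B, with 1 of 3 called higher and 1 lower. The part of these cell types in the rise of Cd80 and Cd274 was not tested.

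**Figure D3:**
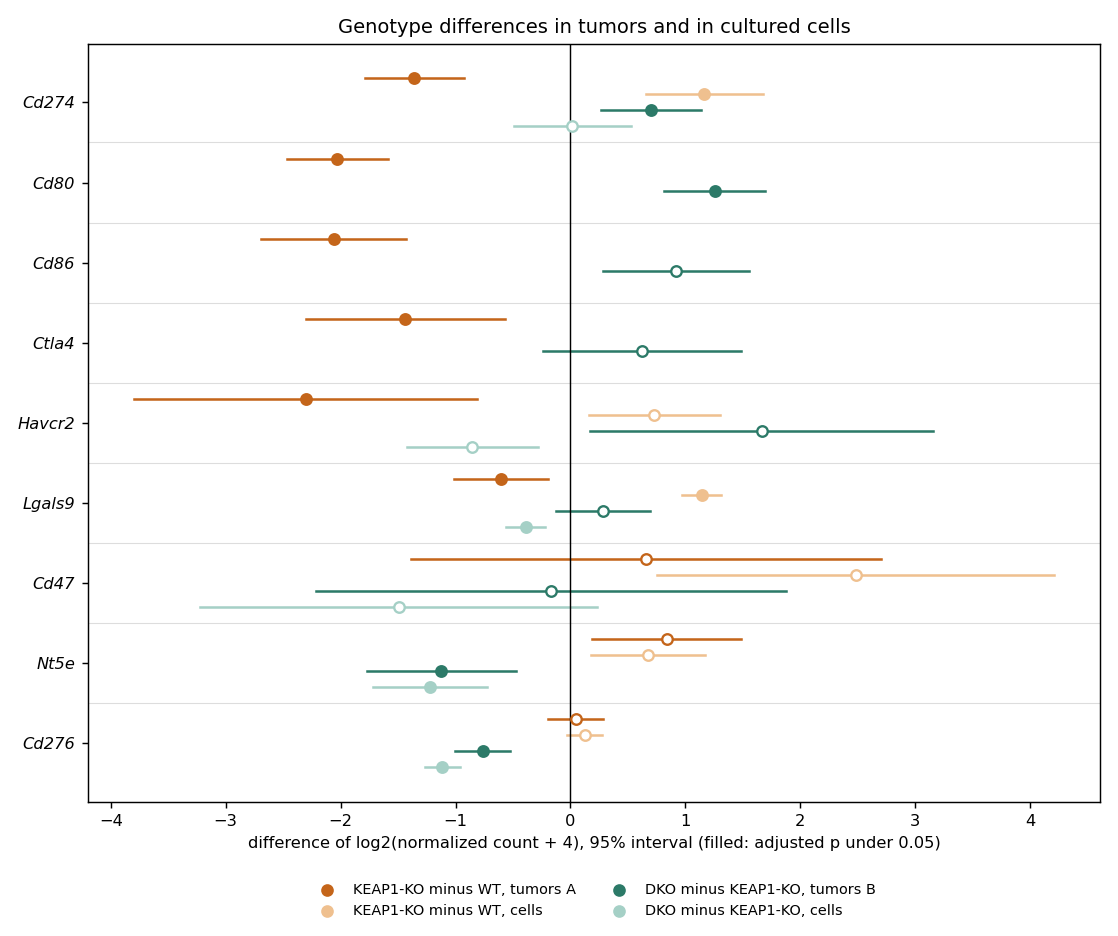
Differences of log2(normalized count + 4) between genotypes for each member in tumors and in cultured cells, with 95% intervals from limma; filled points have an adjusted p under 0.05, and Cd80, Cd86 and Ctla4 were too low in cells to be tested. Cd274 and Lgals9 lie on opposite sides of 0 for KEAP1-KO minus WT in tumors (-1.36 and -0.61) and in cells (1.16 and 1.14), while Nt5e and Cd276 lie on the same side for DKO minus KEAP1-KO.

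The comparison of cultured cells asked how the genotypes differed with no host cells around. The 6 leukocyte markers together reached at most 8.58 normalized counts in any cell library. Cd86 had 0 reads in all 12 cell libraries. Cd80 had 11 reads over the 12 libraries, of which 8 were in KEAP1-KO cells, and Ctla4 had 3. These 3 members did not pass the filter of 5 normalized counts in 4 cell libraries, so 6 members were tested there. Cd274, Lgals9, Nt5e, Havcr2 and Cd276 were detected in all 12 cell libraries.

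In KEAP1-KO cells 2 of the 6 tested members rose over WT cells and none fell, where 15.5% of 29744 rows were called, 8.13% higher and 7.33% lower. Cd274 had 10.3, 15.1, 17.3 and 23.6 normalized counts in WT cells and 38.1, 43.7, 33.9 and 49.2 in KEAP1-KO cells. The groups did not overlap, and the mean was 2.49-fold higher in KEAP1-KO cells (log2 difference 1.16, standard error 0.23, adjusted p = 0.00407, limma). Lgals9, the galectin-9 row that keeps an intron, had 202, 154, 189 and 183 normalized counts in WT cells and 410, 401, 394 and 415 in KEAP1-KO cells. It was 2.23-fold higher, a log2 difference of 1.14 (standard error 0.08, adjusted p = 6.53e-07, limma).

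Nt5e and Havcr2 also had higher means in KEAP1-KO than in WT cells, at log2 differences of 0.68 (adjusted p = 0.0667, limma) and 0.73 (adjusted p = 0.0852, limma), and were not called. Without KEAP1-KO cells replicate 2, Nt5e was called, at 0.82 (adjusted p = 0.0362, limma), and so was Cd47, which made 4 members called. Nt5e was also called without WT cells replicate 3 (0.81, adjusted p = 0.0415, limma) and with adjustment over rows with a symbol (adjusted p = 0.0438, limma). Havcr2 was called without WT cells replicate 1 (0.90, adjusted p = 0.0431, limma). Cd276 was at 379 to 436 normalized counts in WT cells and 433 to 456 in KEAP1-KO cells, a log2 difference of 0.12 with a 95% interval from -0.03 to 0.27 in the limma fit.

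In DKO cells 3 of the 6 tested members fell against KEAP1-KO cells and none rose, where 8.83% of rows were called, 3.98% higher and 4.85% lower. Cd276 had 433, 456, 451 and 441 normalized counts in KEAP1-KO cells and 198, 185, 206 and 226 in DKO cells, without overlap, and was 2.18-fold higher in KEAP1-KO cells (log2 difference -1.11, standard error 0.07, adjusted p = 3.17e-07, limma). Nt5e had 44.6, 30.6, 49.0 and 50.1 normalized counts in KEAP1-KO cells and 16.6, 17.9, 19.9 and 11.1 in DKO cells, without overlap, and was 2.66-fold higher in KEAP1-KO cells (log2 difference -1.22, standard error 0.23, adjusted p = 0.00409, limma). Lgals9 had between 291 and 328 normalized counts in DKO cells, below every KEAP1-KO cell library and above every WT cell library. It fell by 0.39 on the log2 scale (standard error 0.08, adjusted p = 0.00705, limma), a call that was lost when all 28 libraries entered 1 fit (adjusted p = 0.181).

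Cd274 was above WT cells in both edited groups of cells. DKO cells had 52.8, 43.1, 27.2 and 47.0 normalized counts, overlapping KEAP1-KO cells and above all WT cells. The log2 difference between DKO and KEAP1-KO cells was 0.02 with a 95% interval from -0.49 to 0.53, and DKO cells were above WT cells by 1.18 (standard error 0.23, adjusted p = 0.00334, limma). Against WT cells, 3 members were called in DKO cells, where 17.7% of rows were called, 8.46% higher and 9.2% lower. Cd274 and Lgals9 were higher, the latter by 0.75 (standard error 0.08, adjusted p = 2.19e-05, limma), and Cd276 was lower by 0.99 on the log2 scale, that is, -0.99 (standard error 0.07, adjusted p = 6.93e-07, limma). Havcr2 was 2.17-fold higher in KEAP1-KO than in DKO cells, at a log2 difference of -0.85 that was not called (adjusted p = 0.0685, limma). It was called without DKO cells replicate 1 (-1.03, adjusted p = 0.0322, limma) and with adjustment over rows with a symbol (adjusted p = 0.0424, limma).

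The difference between the effect in tumors and the effect in cells was tested as an interaction over all 28 libraries. For the loss of KEAP1, 5 of the 9 members had a lower effect in tumors A than in cells and none a higher one, where 5.38% of 37246 rows were called, 1.5% higher and 3.88% lower. Cd274 rose in the cells and fell in the tumors, and its interaction was -2.52 (standard error 0.31, adjusted p = 4.51e-06, limma). Lgals9 did the same, with -1.75 (standard error 0.22, adjusted p = 7.72e-06, limma). Cd80 (-2.38, adjusted p = 3.30e-06, limma), Cd86 (-2.06, adjusted p = 3.54e-04, limma) and Havcr2 (-3.03, adjusted p = 0.0263, limma) were called as well, although Cd86 was at 0 in all cell libraries and Cd80 near 0. Neither was tested in the cells alone, so their interactions rest on the tumors, and 3 of the 5 compare effects measured in both. The call of Havcr2 was lost with a pseudocount of 0.4 (-4.20, adjusted p = 0.170, limma) and without WT cells replicate 2, KEAP1-KO cells replicate 1 or WT tumors A replicate 1. Ctla4 was not called at -1.50 (adjusted p = 0.0552, limma), but was without WT tumors A replicate 2 or 4 or KEAP1-KO tumors A replicate 3, with adjusted p down to 0.0181 (limma), and it too was near 0 in the cells. Nt5e and Cd276 had interactions of 0.16 (95% interval from -0.66 to 0.98) and -0.08 (from -0.36 to 0.21).

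For the loss of NRF2, 1 of the 9 members was called, where 3.67% of rows were called, 2.12% higher and 1.55% lower. That was Cd80, with an interaction of 1.71 (standard error 0.29, adjusted p = 5.23e-04, limma), but it had 8 reads in KEAP1-KO and 1 read in DKO cells and was not tested in the cells, so its interaction rests on the tumors. No member tested in both tumors and cells was called. Cd274 had 0.68 (adjusted p = 0.312, limma), Cd86 0.92 (adjusted p = 0.196, limma), Havcr2 2.52 (adjusted p = 0.102, limma) and Lgals9 0.67 (adjusted p = 0.113, limma). Nt5e, which fell in DKO tumors and in DKO cells, had 0.10 with a 95% interval from -0.72 to 0.92, and Cd276 had 0.35 with an interval from 0.07 to 0.63 and an adjusted p of 0.206 (limma). Without KEAP1-KO tumors B replicate 2, Cd86, at 0 in all cells, was called too, at 1.18 (adjusted p = 0.0431, limma). Lgals9 was called when only the groups compared were fitted (adjusted p = 0.0451, limma).

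**Figure D4:**
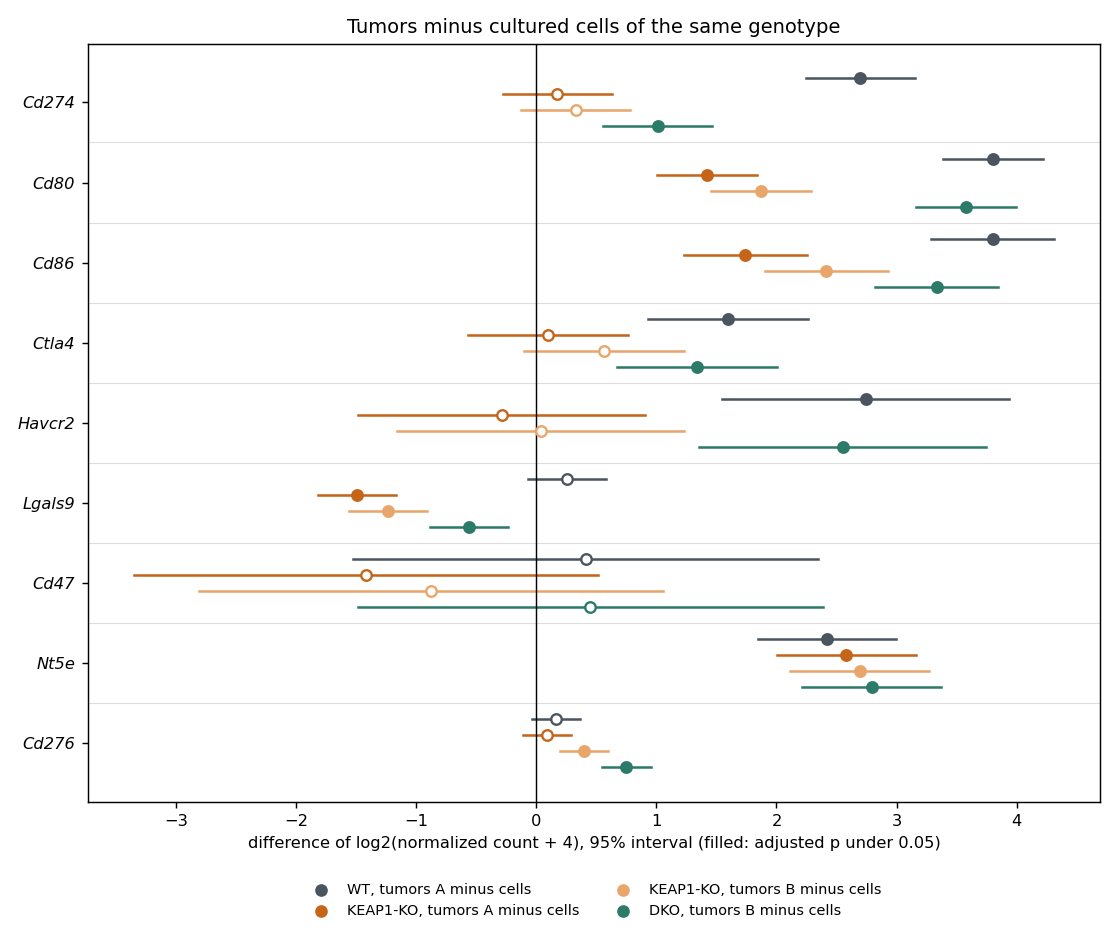
Differences of log2(normalized count + 4) between tumors and cultured cells of the same genotype for each member, with 95% intervals from limma; filled points have an adjusted p under 0.05. Nt5e lies between 2.42 and 2.79 in all genotypes, whereas Cd274 is at 2.70 for WT, 0.17 and 0.33 for KEAP1-KO and 1.01 for DKO.

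Against cultured cells of their own genotype, 6 of the 9 members were called higher in WT tumors A, where 38.8% of 37246 rows were called, 24.7% higher and 14.1% lower. In KEAP1-KO tumors A 3 were higher and 1 lower (39.6% of rows called, 23.9% higher and 15.8% lower), in KEAP1-KO tumors B 4 were higher and 1 lower (38.8%, 23.9% higher and 14.9% lower), and in DKO tumors B 7 were higher and 1 lower (43.5%, 27.6% higher and 15.9% lower). Cd80, Cd86 and Ctla4 had 11, 0 and 3 reads over the 12 cell libraries and passed the filter through the tumors, so their direction here was set by the filter and is a description. They are 3 of the 6 in WT tumors A, 3 of the 7 in DKO tumors B, and Cd80 and Cd86 are 2 of those in KEAP1-KO tumors A and B. The median over all rows was shifted by 0.16 to 0.23 in these comparisons, and differences of that size are not read as changes of a member. Cd86 was at least 63.7-fold higher in WT tumors A than in WT cells, at least 13.9-fold in KEAP1-KO tumors A than in KEAP1-KO cells and at least 49.8-fold in DKO tumors B than in DKO cells, with the cells set to a floor of 3 reads over the group, which covers counting error only. Nt5e was 6.09-fold higher in WT tumors A, 6.70-fold in KEAP1-KO tumors A and 8.66-fold in DKO tumors B than in the cells.

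Cd274 was 7.72-fold higher in WT tumors A than in WT cells (log2 difference 2.70, standard error 0.22, adjusted p = 1.62e-10, limma) and 2.14-fold higher in DKO tumors B than in DKO cells (1.01, standard error 0.22, adjusted p = 4.74e-04, limma). In KEAP1-KO tumors it differed from KEAP1-KO cells by 0.17 (95% interval from -0.28 to 0.63) in Experiment A and 0.33 (from -0.13 to 0.78) in Experiment B, and the latter was called after rescaling without the 20 highest rows (0.66, adjusted p = 0.0165). Lgals9 was lower in KEAP1-KO tumors A than in KEAP1-KO cells, with means of 143 and 405 normalized counts (log2 difference -1.50, standard error 0.16, adjusted p = 1.76e-08, limma), and in KEAP1-KO tumors B (-1.23, standard error 0.16, adjusted p = 4.65e-07, limma). In DKO tumors B it was lower by less (-0.56, adjusted p = 0.00503, limma), a call that was lost after rescaling without the 20 highest rows (-0.11, adjusted p = 0.580). Cd276 was higher in DKO tumors B than in DKO cells by 0.75 (standard error 0.10, adjusted p = 4.36e-07, limma). Its call in KEAP1-KO tumors B, at 0.40, was lost when libraries were centred on their medians (0.12, adjusted p = 0.332).

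KEAP1-KO tumors were grown in both experiments, on the right flank beside WT tumors in A and on the left beside DKO tumors in B. Between KEAP1-KO tumors B and A, 0 of the 9 members were called by limma and 3 had an unadjusted p under 0.05, where 0.164% of 34215 rows were called, 0.152% higher and 0.0117% lower. These 3 were Cd86 (0.67, 95% interval from 0.04 to 1.31), Cd80 (0.45, from 0.01 to 0.89) and Cd276 (0.31, from 0.07 to 0.55). Leukocyte markers summed to between 1039 and 1377 normalized counts in KEAP1-KO tumors B and between 639 and 713 in KEAP1-KO tumors A. Ptprc, 1 of these markers, was called higher in KEAP1-KO tumors B (0.81, adjusted p = 0.0406, limma). Between DKO tumors B and WT tumors A, which also differ in experiment and flank, 1 of 9 members was called, where 10.6% of rows were called, 4.57% higher and 5.99% lower. Cd276 was lower in DKO tumors (-0.41, standard error 0.11, adjusted p = 0.0298, limma), and with any of WT tumors A replicates 1, 2 and 3 and DKO tumors B replicates 1 and 3 left out 0 members were called. Cd274 differed by -0.50 (from -0.94 to -0.07, adjusted p = 0.139, limma), Cd80 by -0.33 (from -0.76 to 0.11) and Cd86 by -0.47 (from -1.10 to 0.16).

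Cd47 could not be read in these data. Its row had 0 reads in 9 of 16 tumors and 7 of 12 cell libraries and up to 58 and 53 reads in the others, with both kinds of library within 6 of the 7 groups. KEAP1-KO tumors B, for example, had 0, 17.7, 58.8 and 0 normalized counts. The row is 1 of 10 annotated transcripts of the gene and was not called in the 13 comparisons as set out, but was in 3 alternatives for KEAP1-KO against WT cells and in 1 for DKO against KEAP1-KO cells.

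Ordered by their mean log2 value, the groups formed patterns that separate the members. Cd274, Cd80, Cd86 and Ctla4 stood in the order WT tumors A, DKO tumors B, KEAP1-KO tumors B and KEAP1-KO tumors A. Among these neighbours the ranges overlapped, except between DKO tumors B and KEAP1-KO tumors B for Cd80 and between WT tumors A and DKO tumors B for Cd86. Havcr2 had the same first 3 places. Nt5e stood in the order KEAP1-KO tumors B, KEAP1-KO tumors A, WT tumors A and DKO tumors B, with overlapping neighbours, then KEAP1-KO, WT and DKO cells, also overlapping, with a gap between tumors and cells. Cd276 was highest in KEAP1-KO tumors B and lowest in DKO cells. Lgals9 had its highest mean in KEAP1-KO cells (8.68 ± 0.03, SD, n = 4), above DKO cells (8.29 ± 0.08, n = 4) and all tumor groups, and its lowest in KEAP1-KO tumors A (7.18 ± 0.28, n = 4).

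The rows most like a member were found by the root mean square difference of log2 values over the 28 libraries after centring, among 16564 rows with a symbol. Cd80 had Ncf4 (0.30), a subunit of the phagocyte NADPH oxidase, Cd86 (0.30) and Rasgef1b (0.315) as neighbours, against 1.52 for the spread of Cd80 itself, and Cd80 was in turn the nearest row to Cd86 (0.30). Near to Ctla4 were Cd6 (0.335) and Tnfsf9 (0.34), against 0.73 for Ctla4 itself. The nearest to Cd274 were Zfp36 (0.36), Tlr9 (0.43) and Piwil2 (0.44), against 0.84. Lgals9 was nearest to Ifi30 (0.26, against 0.52), Cd276 to 2500002B13Rik (0.23, against 0.46) and Nt5e to Arap1 (0.45, against 1.51). Havcr2 had Apobec1 as its nearest row, at 0.704 against 1.297. These libraries fall into few groups, so a small difference says only that the rows share a pattern over groups.

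**Figure D5:**
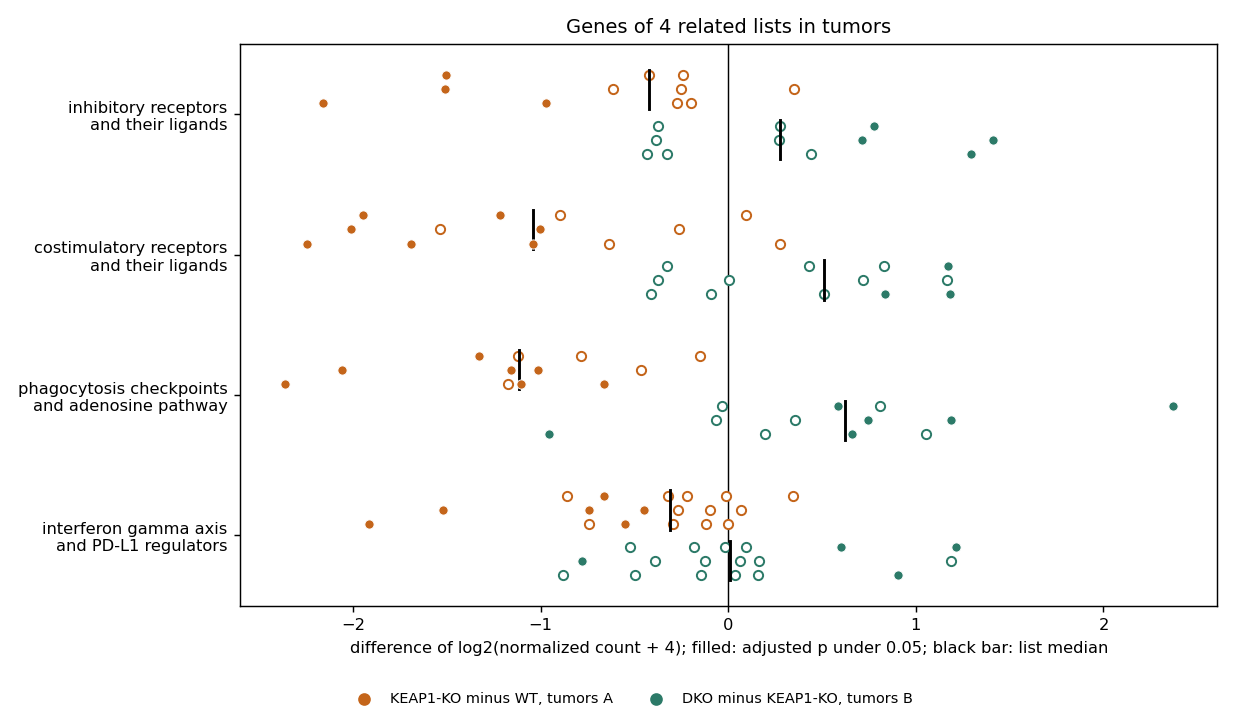
Differences of log2(normalized count + 4) for the tested genes of 4 related lists in KEAP1-KO minus WT tumors A and DKO minus KEAP1-KO tumors B (points; filled where the adjusted p from limma is under 0.05; black bars are list medians). In Experiment A all called genes of the lists lie below 0, and in Experiment B all but 2 lie above it.

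Genes of the same pathways, from lists that leave out the members, were read beside them. Of the 54 genes tested in Experiment A, 18 have gene rows and 36 a single transcript. Of other inhibitory receptors and their ligands, 12 of 20 were in the table and 11 tested, and in Experiment A 4 fell and none rose, with a median of -0.42 against -0.03 over all rows, of which 5.61% were called higher and 7.49% lower. In Experiment B 4 rose and none fell (median 0.28), where 4.22% of all rows were called higher and 4.64% lower. Tnfrsf14, whose product is the HVEM ligand of BTLA, fell by 2.16 on the log2 scale in KEAP1-KO tumors A, that is, -2.16 (adjusted p = 1.73e-06, limma), and rose by 1.41 in DKO tumors B (adjusted p = 2.05e-04, limma). Cd200r1, an inhibitory receptor of myeloid cells, and Ceacam1 moved likewise, by -1.51 and -1.50 in Experiment A and 0.78 and 1.296 in Experiment B. Pdcd1, the gene of PD-1, was not analysed here.

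Of other costimulatory receptors and their ligands, 14 of 20 were in the table and 13 tested. In Experiment A 7 fell and none rose (median -1.04, with 7.49% of all rows called lower), and in Experiment B 3 rose and none fell (median 0.51, with 4.22% of all rows called higher). In KEAP1-KO cells 2 of 5 tested rose and 1 fell, beside 8.13% and 7.33% of all rows. Icos, a receptor of activated T cells, differed by -1.95 in Experiment A (adjusted p = 6.72e-05, limma) and 1.18 in Experiment B (adjusted p = 0.00715, limma), and Icam1, an adhesion ligand, by -2.01 and 1.17. Tnfrsf4, which encodes OX40, differed by -2.25 in KEAP1-KO tumors A (adjusted p = 7.70e-05, limma), and in KEAP1-KO cells by -2.75 against WT cells (adjusted p = 3.83e-05, limma). It had a mean log2 value of 3.56 in DKO tumors B and 3.94 in KEAP1-KO tumors B. In the cells, Tnfrsf9 (4-1BB) had means of 6.36 in KEAP1-KO and 4.10 in DKO cells, a difference of -2.26 (adjusted p = 3.54e-06, limma).

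Among phagocytosis checkpoints and genes of the adenosine pathway, 15 of 16 were in the table and 12 tested. In Experiment A 7 fell and none rose (median -1.11, with 7.49% of all rows called lower), and in Experiment B 5 rose and 1 fell (median 0.62, with 4.22% of all rows called higher and 4.64% lower). Sirpa, the receptor of CD47 on macrophages, differed by -2.06 in Experiment A (adjusted p = 3.04e-07, limma) and 0.66 in Experiment B (adjusted p = 0.0147, limma). Thbs1, the gene of thrombospondin-1, another ligand of CD47, differed by -2.36 and 2.37. B2m, the light chain of MHC class I, differed by -1.11 and 0.74. Entpd1, which encodes CD39 and acts upstream of CD73, differed by -1.16 in Experiment A (adjusted p = 1.64e-04, limma), where Nt5e had 0.84. Ada, which removes adenosine, was the gene that fell in both, by -1.33 (adjusted p = 1.61e-04, limma) and -0.96 (adjusted p = 0.00430, limma), and it was also lower in KEAP1-KO than in WT cells, by -0.86 (adjusted p = 6.63e-04, limma).

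Of the interferon gamma axis and regulators of PD-L1, 19 of 20 were in the table and 18 tested. In Experiment A 6 fell and none rose (median -0.31, with 7.49% of all rows called lower), and in Experiment B 3 rose and 1 fell (median 0.01, with 4.22% of all rows called higher and 4.64% lower). Irf1, a transcription factor of the interferon response that acts on Cd274, differed by -1.91 in Experiment A (adjusted p = 0.0321, limma), and Irf9, a subunit of the complex that binds interferon-stimulated response elements, by -1.52 (adjusted p = 1.41e-04, limma) and by 1.22 in Experiment B (adjusted p = 0.00172, limma). Socs1, a feedback inhibitor of interferon signalling, differed by -0.74 and 0.60. Myc was the gene that fell in Experiment B (-0.78, adjusted p = 0.00633, limma). In the cells, where Cd274 rose with the loss of KEAP1, 1 of the 15 tested genes rose and 4 fell, where 8.13% of all rows were called higher and 7.33% lower. Among those that fell were Irf9 (-0.62, adjusted p = 0.00627, limma) and Socs1 (-0.34, adjusted p = 0.0261, limma), and Nlrc5, an activator of MHC class I genes, was the one that rose (0.30, adjusted p = 0.00613, limma).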

How the data were processed

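RNA-seq of 16 tumors and 12 libraries of cultured cells was used. Per the study's methods, the authors depleted ribosomal RNA, made strand-specific libraries, sequenced paired ends, quantified with Salmon on GENCODE mouse transcripts and used iDEP. The authors gave log2 values, log2(normalized count + 4), although their methods speak of TPM. Undoing the log2 gave whole reads within 0.05, for values up to 50 reads, in 100% of cases in every library. The log2 values were tested as deposited, and no count model was run. Their methods name a GENCODE release other than vM21, and the genome build of the table is not given in the sources used here. Transcript types and coordinates come from GENCODE vM21 (GRCm38), matched by ID, and from RefSeq. Between 13.9% and 23.5% of rows were at 0 in a library, which limits the low members. There were 0 columns of values without a sample.

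Groups were compared with limma 3.58.1 in R 4.3.3 (lmFit, eBayes with trend), on rows that reached 5 normalized counts in 4 or more of the libraries fitted, Benjamini-Hochberg adjustment over all rows and a threshold of 0.05. Tumors, cells and all 28 libraries each had a fit. No libraries were duplicates. The fits were tested on simulated data. Python 3.11.15, pandas 2.3.3 and matplotlib 3.10.9 were used for the rest.

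The members and gene lists were chosen with earlier results of these data known. Named by rule are all members, Keap1, Nfe2l2, Nqo1 and Ptprc as checks, at most the 3 largest called differences per list, direction and comparison, and up to 3 rows most like each member called in a tumor comparison within an experiment. Krt8, Krt18, Cdh1, Pax5 and Entpd1 were named after their values were seen. The alternatives were a pseudocount of 0.4, no filter, a mean of at least 25 normalized counts, quantile normalization, no trend, centring on medians, scaling that leaves out the 20 highest rows, adjustment over rows with a symbol, a log2 difference of at least 1, other groups in the fit, replicate blocks and each library left out.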

Additional observations from a re-analysis of the deposited data

Results flagged for a closer look

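Values far from the other 3 of their group were found in 6 of the 58 groups of member values tested, where chance flags about 1 in 20 for values on a continuous scale. In 4 of the 6 the other 3 libraries were tied at 0 reads, and that rate does not apply to them. Ctla4 stood apart in KEAP1-KO tumors A replicate 3, with a log2 value of 2.98 from 4 reads, and in WT cells replicate 4, at 2.34 from 1 read, and Cd80 in DKO cells replicate 4, at 2.28 from 1 read, while the others were at 0 reads. Cd86 in KEAP1-KO tumors A replicate 3 had 3.43 against a median of 3.85. Havcr2 in KEAP1-KO tumors B replicate 1 had 2, the value of 0 reads, against a median of 5.12 in the others. Cd47 in WT tumors A replicate 4 had 3.64 and 10 reads where the others had 0.

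The effect of KEAP1 loss differed between tumors and cells for Cd274 (-2.52), Lgals9 (-1.75) and Havcr2 (-3.03), as interactions in limma on the log2 scale. For Cd274 and Lgals9 the effects had opposite signs in tumors and cells, and the effect of Lgals9 in tumors lost its call in 14 of 20 alternatives. The call of Havcr2 was lost in 4 of 26 alternatives. Interactions were also called for Cd86 (-2.06) and Cd80 (-2.38) with the loss of KEAP1 and for Cd80 (1.71) with that of NRF2, but Cd86 had 0 reads in all cell libraries and Cd80 at most 3 in any, so these interactions rest on the tumors.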

How the results depend on the processing

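All 48 called member differences kept their direction in every alternative that gave a value, and 34 kept the call in every one. Of 60 uncalled differences, 14 were called in some alternative. In the counts of members called, the filter on a mean of 25 normalized counts, which leaves out low members, gave 3 for WT tumors A minus WT cells (64.8% of all rows called), 2 and 3 for KEAP1-KO tumors A and B minus cells (68.3% and 66.6%), 5 for DKO tumors B minus DKO cells (69.7%), 3 for the KEAP1 interaction (10.3%) and 0 for the NRF2 interaction (8.82%). For DKO against WT tumors the count was 0 with quantile normalization, rescaling without the 20 highest rows, no trend, a log2 difference of at least 1 and only the groups compared, where between 8.84% and 11.2% of all rows passed 0.05. For DKO against KEAP1-KO tumors B it was 2 with no trend (7.37% of all rows) and with a log2 difference of at least 1. For DKO against WT cells it was 1 with that limit. The share of all rows that pass this limit on the log2 difference was not counted. For KEAP1-KO against WT cells the count was 4 with adjustment over rows with a symbol (27.3%), and for the NRF2 interaction 2 with only the groups compared (3.87%).

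Of the 60 uncalled differences, 21 changed sign in some alternative, and 3 of these were called in another, Cd276 between WT tumors A and cells (-0.229 to 0.540), Cd276 between KEAP1-KO tumors A and cells (-0.144 to 0.462) and Lgals9 between WT tumors A and cells (-0.140 to 0.625). The others include Cd274 between KEAP1-KO tumors A and cells (-0.0557 with quantile normalization and -0.0592 with median centring), the NRF2 interaction of Nt5e (-0.0600 with quantile normalization) and the KEAP1 interaction of Cd276 (0.0849 with median centring). The cause was not tested. With each library left out, counts ran from 3 to 6 for KEAP1-KO against WT tumors A and 2 to 4 for DKO against KEAP1-KO tumors B. They ran from 0 to 1 for DKO against WT tumors, 2 to 4 for KEAP1-KO against WT cells and 1 to 2 for the NRF2 interaction. The share of all rows called was not counted for any fit with a library left out. These counts therefore do not show whether the members or all rows moved. Differences ran from -0.0897 to 0.197 for Cd274 in DKO against KEAP1-KO cells, -0.0610 to 0.124 for Cd276 in KEAP1-KO against WT tumors A, -0.183 to 0.00137 for the KEAP1 interaction of Cd276, -4.75e-04 to 0.441 for that of Nt5e and -0.0728 to 0.289 for the NRF2 interaction of Nt5e.

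The labels do not say whether replicate numbers pair the samples. Correlations of same-numbered libraries were between -0.03 and 0.03, which does not settle whether same-numbered tumors share a mouse. WT and DKO cells each correlated best with their own number, the other pairs of groups did not. With the replicate number as a block, 5 members were called between KEAP1-KO and WT tumors A (3757 of 34215 rows), where Havcr2 (adjusted p = 0.0569, limma) and Lgals9 (0.0963) lost their calls and Nt5e was called higher (0.84, 0.0300). There were 4 between DKO and KEAP1-KO tumors B (7.28%), 4 between KEAP1-KO and WT cells (13.7%), with Havcr2 (0.0385) and Cd47 added, 4 between DKO and KEAP1-KO cells (7.34%), with Havcr2 added (0.0310), and 3 between DKO and WT cells (15.6%).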
